A study of Caenorhabditis elegans with 4 samples.

Results

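The genes described here encode the cytoplasmic intermediate filament proteins of the nematode Caenorhabditis elegans: ifa-1, ifa-2, ifa-3, ifa-4, ifb-1, ifb-2, ifc-1, ifc-2, ifd-1 and ifd-2. All 10 were found on the array through the platform's table of probes and genes, with 13 probe sets among 20766 probe sets that the table assigns to a single gene (17118 genes). The table lists ifa-2 (sequence name W10G6.3) under its other name, mua-6. By the grouping used here, ifb-2, ifc-1, ifc-2, ifd-1 and ifd-2 are the intestinal members and the ifa genes with ifb-1 are the epidermal members. No probe set assigned to several genes names a member.

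Transcripts were measured in whole wild-type young adult hermaphrodites with 4 Affymetrix C. elegans Genome arrays. One array holds untreated worms. The other 3 hold worms kept unfed for 24 h at 20 °C in a salt solution named K-medium that held a chemical: bisphenol A (BPA) and NP, read here as nonylphenol, are phenols, and DEHP, di(2-ethylhexyl) phthalate, is a diester. The doses were matched as a fraction of toxicity, 1/100 of the concentration of each compound that kills 50% of worms in 24 h, and not in moles. The labels do not say whether the untreated worms were fed or held in the medium, so exposure and loss of food cannot be told apart in a comparison with the control. All groups were raised on agar with Escherichia coli OP50 from synchronized eggs. With 1 array a group, the data hold no replicates and no measure of the spread between worms. No test was therefore possible, and every value below describes these arrays alone.

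Intermediate filaments are rope-like polymers of coiled-coil proteins that give cells and tissues mechanical strength. In the worm intestine they form a dense sheet under the apical brush border, the endotube of the terminal web, which is anchored to the cell junctions and supports the gut lumen. In the epidermis they lie in hemidesmosome-like attachments, the fibrous organelles, which couple body wall muscle to the cuticle, and IFB-1 pairs with the IFA proteins to build them. Filaments also line the excretory canal and the marginal cells of the pharynx.

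Intensities are given as deposited. A log2 change is the difference between 2 arrays after scaling to a common median, less the difference of the median detected gene. Detection in a comparison required that 1 of its arrays reached the median of all probe sets over the 4 arrays, a scaled intensity of 129. A detected gene was called if it also lay at least 2-fold from the median gene. The NP array differed most from the others in scale, with a median intensity of 109 against 128 to 142. Before centring, the median change of detected genes against the control was 0.38 log2 for NP, against 0.16 for DEHP and 0.0099 for BPA. Without the centring, the calls over all genes on the NP array turned from 753 lower and 172 higher to 318 lower and 764 higher, and on the DEHP array from 510 and 251 to 365 and 391. Quantile normalization gave 541 and 242 for NP, and loess scaling 562 and 251. The values as deposited, also not centred, gave 786 and 166 for NP and 533 and 256 for DEHP. Below, values without the centring are those scaled to a common median. For actin, the 3-prime control probe set exceeded the 5-prime one 1.88 times on the NP array and 1.19 to 1.37 times on the others, and the part of this ratio in the NP values was not tested. With genes in 5 equal groups by span, the median change of the longest group minus that of the shortest was -0.44 log2 on the NP array.

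Among the members, the intestinal ifc-1 differed most from the control after DEHP and NP, and was the one gene called after all 3 exposures (sequence name F37B4.2, chromosome V). Its intensity was 2732 in untreated worms, 1246 after BPA, 378 after DEHP and 234 after NP. All 3 exposed arrays lay below the control, and all 4 values were above the detection level. Its log2 change was -1.13 after BPA, -2.86 after DEHP and -3.55 after NP, that is 2.19-fold, 7.26-fold and 11.7-fold lower than the median gene. Among all detected genes, counted from the lowest, it had rank 84 of 8819 for BPA, rank 13 of 8915 for DEHP and rank 5 of 8940 for NP. IFC-1 is one of the filament proteins of the intestinal terminal web, and it has 1 probe set here, of the unshared type. Fewer cells of a type and less RNA per cell cannot be told apart in RNA of whole worms.

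**Figure D1:**
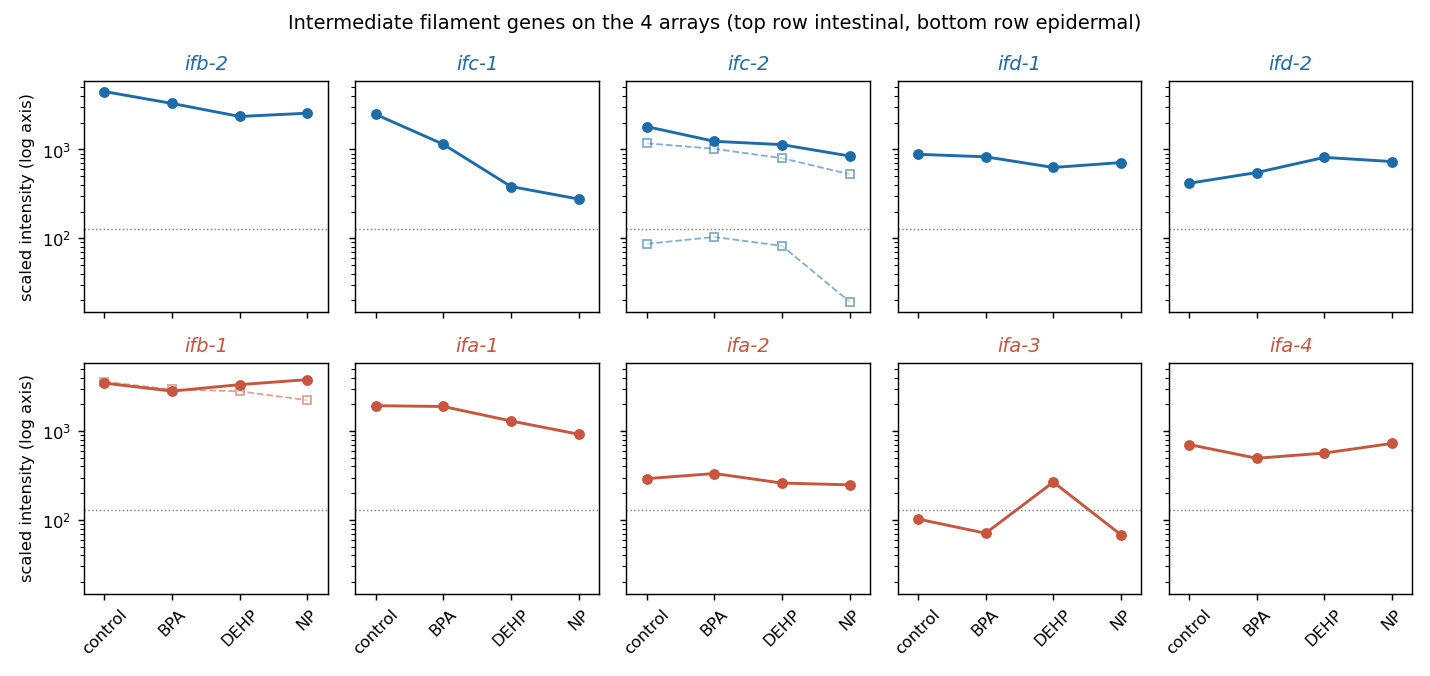
Scaled intensity (log axis) of each intermediate filament gene on the 4 arrays, with the brightest probe set as a solid line and filled points and further probe sets dashed with open squares; the lines only join the points of 1 probe set, and the dotted line is the detection level of 129. The brightest value of ifc-1 is the control's and its lowest are those of DEHP and NP, while ifb-1, ifa-2 and ifa-4 vary less, and ifa-3 reaches the detection level on the DEHP array alone.

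The transcript of ifb-2 (F10C1.7, chromosome II) had an intensity of 4930 in the control, 3588 after BPA, 2326 after DEHP and 2169 after NP. IFB-2 is a main component of the endotube. All 3 exposed arrays lay below the control, with a smaller range than for ifc-1, and the DEHP and NP values lay close together, in the opposite order after scaling (2353 and 2562). The log2 changes were -0.46 after BPA, -1.09 after DEHP and -1.19 after NP. The last 2 were called, but at 2-fold the calls depended on the scaling: without the centring on the median gene the values were -0.93 and -0.81. Its probe set is of the _s_ type, which can match more than 1 transcript.

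The transcript of ifc-2 (M6.1, chromosome X) is read by 3 probe sets. IFC-2 serves both the intestine and the excretory canal, where the gene is also known as exc-2. The brightest probe set read 1985 in the control, 1345 after BPA, 1120 after DEHP and 714 after NP, and the next one read 1288, 1107, 789 and 445. Both had the same order of arrays, with log2 changes on the NP array of -1.48 and -1.54. On the DEHP array they read -0.83 and -0.71, and on the BPA array -0.56 and -0.22, all short of 2-fold. The remaining probe set, of the _x_ type, was under the detection level on all 4 arrays. The gene spans 12749 bases in the WBcel235 annotation, the longest of the 10 members.

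The 2 ifd genes lay on different sides of the control. The transcript of ifd-1 (R04E5.10, chromosome X) had an intensity of 969 in the control, 900 after BPA, 620 after DEHP and 603 after NP. Its log2 changes were -0.10, -0.65 and -0.69. The transcript of ifd-2 (F25E2.4, chromosome X), another gene of the terminal web, had an intensity of 457 in the control, 598 after BPA, 805 after DEHP and 619 after NP. All 3 exposed arrays lay above the control for ifd-2, with log2 changes of 0.39, 0.81 and 0.43, so none reached 2-fold. It was the only intestinal member above the median gene in any comparison with the control, and it was above it in all 3. The ifd-2 probe set is of the _s_ type.

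Of the 5 intestinal members, all detected in each comparison, 1 was called lower for BPA, 2 for DEHP and 3 for NP, and none was called higher. Over all 10 members the numbers called lower were 1 of 9 detected in BPA worms, 2 of 10 in DEHP worms and 4 of 9 in NP worms. The NP count was also 4 after the trend with gene span was taken out. Among all detected genes, 1.41% were called lower after BPA, 5.72% after DEHP and 8.42% after NP. The number called higher was 0 with BPA, 1 with DEHP and 0 with NP, where 1.30%, 2.82% and 1.92% of all detected genes were called higher. That 1 member, ifa-3, passed the detection filter only through the DEHP array, so nothing is read from its count. The members' changes had medians of -0.31 for BPA, -0.56 for DEHP and -0.69 for NP, where the median of all detected genes is 0 by construction. The DEHP median includes ifa-3, and over the other 9 members it is the value of ifd-1, -0.65. The 3 comparisons share 1 control array, so a deviation of that array would enter all of them.

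**Figure D2:**
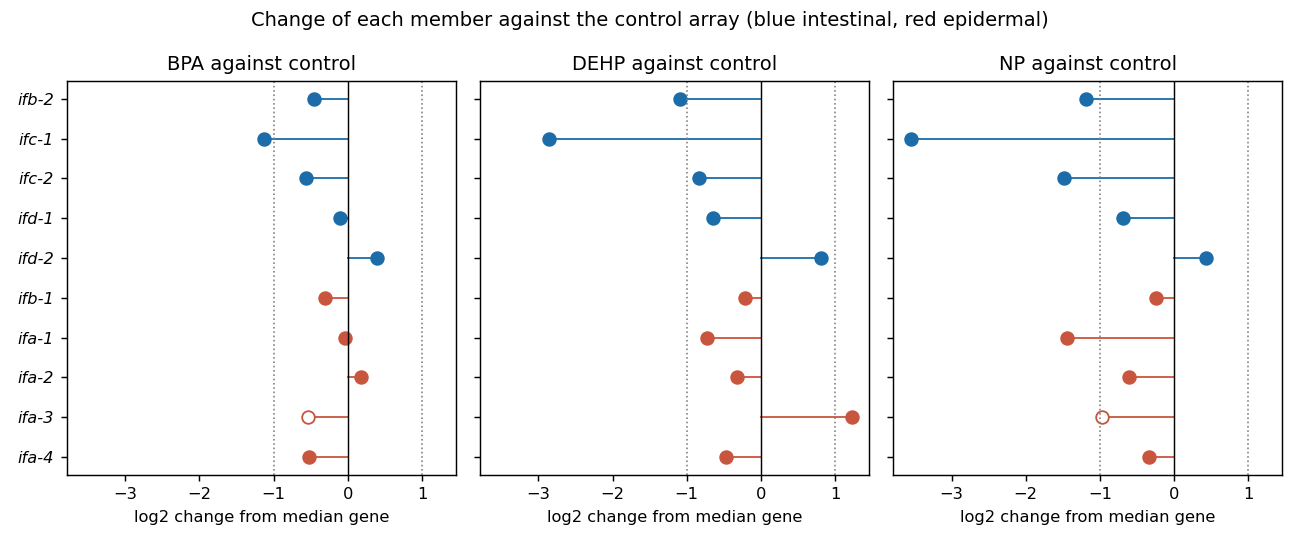
Log2 change of each member from the median detected gene, for the 3 exposed arrays against the control; filled points were detected, open points were not, and dotted lines mark 2-fold. The lowest point in each panel is ifc-1, at -1.13, -2.86 and -3.55, and ifd-2 is to the right of 0 in all 3.

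Among the epidermal members, ifb-1 (F10C1.2, chromosome II), the obligate partner of the IFA proteins, is read by a pair of probe sets. The one with the higher mean read 3807 in the control, 3070 after BPA, 3298 after DEHP and 3216 after NP, a narrow range, and its log2 changes were -0.31, -0.21 and -0.25. The other, of the _s_ type, read 3947, 3203, 2778 and 1886, with changes of -0.30, -0.51 and -1.07. The probe sets were alike for BPA and disagreed for NP, the array with the highest actin ratio. Whether that ratio bears on the disagreement was not tested.

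The transcript of ifa-1 (F38B2.1, chromosome X), whose protein is found in the pharynx, rectum and other epithelia, had an intensity of 2121 in the control, 2061 after BPA, 1286 after DEHP and 781 after NP. The BPA array was close to the control, and DEHP and NP were each lower. The log2 changes were -0.04, -0.73 and -1.45. By the probe set with the highest mean of each gene, the NP value of ifa-1 was the only one called lower than the control among the epidermal members. It was -1.07 without the centring, still over 2-fold.

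The other ifa genes differed less or were dim. IFA-2, needed to hold muscle to the cuticle, had a transcript intensity of 320 in the control, 362 after BPA, 257 after DEHP and 210 after NP, with changes of 0.18, -0.32 and -0.61. The transcript of ifa-4 (K05B2.3, chromosome X), a filament gene of the excretory canal, read 775 in the control, 538 after BPA, 559 after DEHP and 616 after NP, with changes of -0.52, -0.48 and -0.34. Neither gene was called on any array, and both are read by an _s_ probe set. Without the centring, the NP values of ifa-4 and ifb-1 turned to 0.04 and 0.13, so no direction is given for them there.

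The transcript of ifa-3 (F52E10.5, chromosome X), an epidermal filament gene that the embryo and larva require, was dim. It read 112 in the control, 77 after BPA, 263 after DEHP and 57.6 after NP. The DEHP array alone was above the detection level, 1.22 log2 over the control, and it was the single member called higher against the control. As the control value is under the detection level, the size of this difference is uncertain. The gene was not detected for BPA or NP. It lies next to ifa-2 in the WBcel235 annotation, with 0 protein-coding genes between them, and on the DEHP array ifa-2 stood at -0.32.

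**Figure D3:**
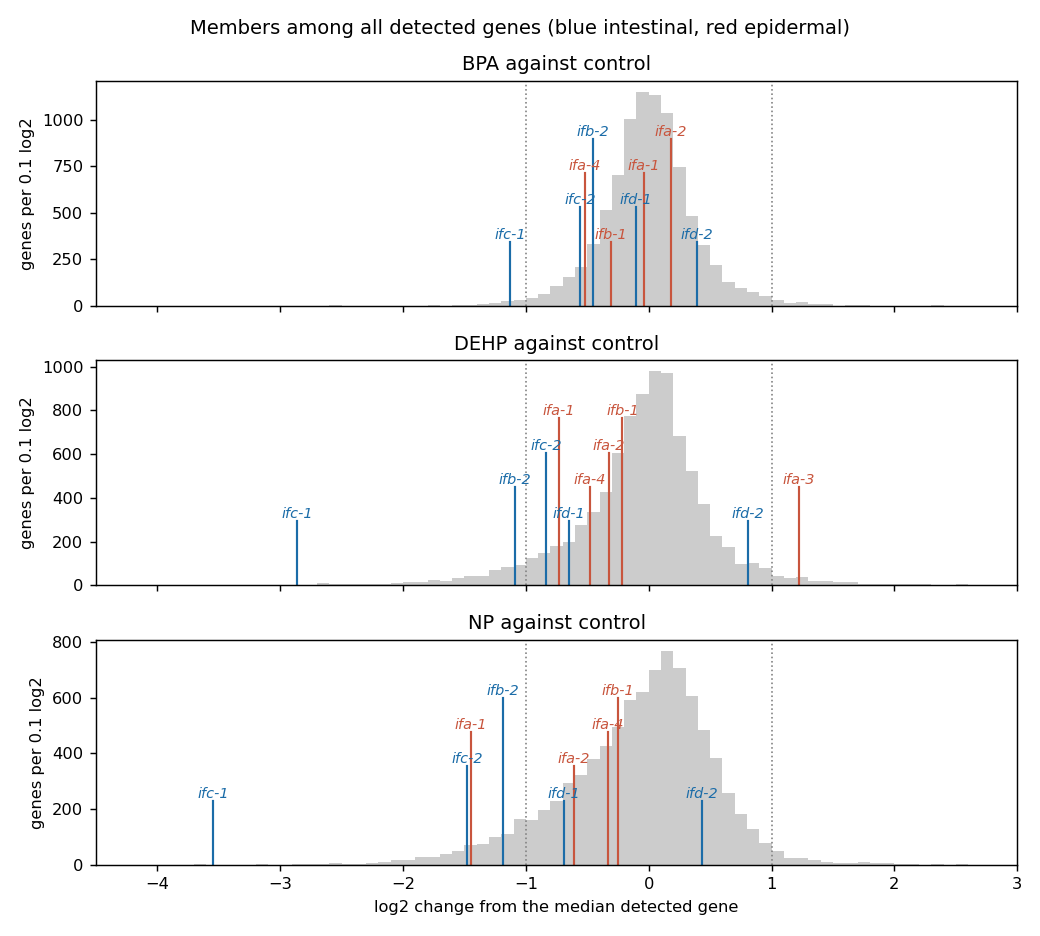
Number of detected genes per 0.1 log2 of change from the median gene (grey bars) for each exposed array against the control, with each detected member as a labelled line and dotted lines at 2-fold. The distribution is wider for DEHP and NP than for BPA. The line of ifc-1 is past 2-fold to the left on each exposed array, and in the far left tail for DEHP and NP. Most other members lie left of 0. Of these, ifb-2 is also past 2-fold for DEHP and NP, and ifc-2 and ifa-1 for NP.

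The intestinal members had lower median changes than the epidermal members on the DEHP and NP arrays, while for BPA the difference depended on the probe sets. The epidermal group includes ifa-1, described above as a gene of the pharynx, rectum and other epithelia, and ifa-4, one of the excretory canal. The group medians were -0.46 against -0.17 for BPA, -0.83 against -0.32 for DEHP and -1.19 against -0.47 for NP, differences of -0.28, -0.51 and -0.72. With the mean of the probe sets the differences were -0.0057, -0.29 and -0.55, so the one for BPA all but vanished, and without the filter on dim genes it was -0.15. These rest on 5 intestinal genes and 4 epidermal ones, with the dim ifa-3 (1.22) as a further one for DEHP. It passed the filter only through that array and raises the DEHP median, which without it lies between ifa-4 (-0.48) and ifa-2 (-0.32). The groups overlapped on each array: ifd-2 was above most epidermal members, and ifa-1 was below ifd-1 for both DEHP and NP. Medians of intestine and epidermis markers, described below, also differed: -0.24 and 0.29 for DEHP, and -0.72 and -0.18 for NP. The part of the tissues in the difference was not tested.

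Most genes that mark the whole intestine lay below the median gene on the NP array, though none by 2-fold. Of 11 listed markers 10 were on the array and detected, and of these, which include the transcription factor gene elt-2, the esterase gene ges-1 and the peptide transporter gene pept-1, 9 were below the median gene for NP and 0 were called, with a median of -0.72. For DEHP the median was -0.24 and for BPA -0.12. The summed intensity of these markers was 43593 in the control, 43130 with BPA, 38817 with DEHP and 30817 with NP, and none was at the floor. The protease genes asp-1 and cpr-1 made up 85.7% of the control sum, so it describes mainly these 2 genes. Without the centring the NP median was -0.34, and with loess scaling 2 markers were called lower. On the same arrays, ifc-1 lay below the marker median by a further 1.01 log2 for BPA, 2.62 for DEHP and 2.83 for NP. For ifb-2 this distance was 0.33, 0.85 and 0.47, and for ifc-2 it was 0.44, 0.60 and 0.76. The change of ifd-1 on the NP array was within 0.030 log2 of the marker median, and ifd-2 lay above it by 1.15. The part of the intestine's share of the RNA in the members' values was not tested.

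Genes of the intestinal apical cytoskeleton were examined as a list of 13, which holds organizers of the filament sheet, brush border genes and general junction and polarity genes such as par-6 and hmr-1. All 13 were detected. For BPA and DEHP none was called, with medians of 0.12 and 0.04. For NP 3 were called lower and none higher, with a median of -0.18, where 8.42% of all detected genes were called lower. Without the centring 0 of the 13 were called and the median was 0.19. With the values as deposited the median was -0.18 with 3 called lower. With quantile and with loess scaling it was -0.34 with 2 called lower. As the sign depended on the setting, no direction is given for the list. The gene ifo-1, whose protein organizes the filaments at the apical junction, had an intensity of 1748 in the control, 933 after DEHP and 1021 after NP, changes of -0.91 and -0.78 that were not called. The brush border actin gene act-5 read 4248 in the control and 1984 after NP (-1.10, and -0.72 without the centring). The actin-regulating gene eps-8 read 1227 in the control and 577 after NP (-1.09, and -0.71 without the centring). The kinase gene sma-5, whose loss deforms the intestinal filament sheet, read 165 in the control and 70.8 after NP (-1.22, and -0.84 without the centring), a dim transcript. The junction genes lay on both sides of the median gene on the NP array, from ajm-1 at -0.62 and let-413 at -0.04 to hmp-1 at 0.27, hmr-1 at 0.29 and dlg-1 at 0.46.

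Filament genes outside the 10 were also read. The transcript of ifp-1, a further intestinal filament gene that is not among the 10, had an intensity of 1344 in the control, 1366 after BPA, 648 after DEHP and 637 after NP, with changes of 0.03, -1.06 and -1.08. It was just past 2-fold on 2 arrays and close to the control on the BPA array. Both calls ended without the centring, where the values were -0.90 for DEHP and -0.70 for NP. The nuclear lamin gene lmn-1, whose protein forms the filaments of the nuclear envelope, was not called, with changes of -0.05, -0.26 and -0.54. Of the lamin's partners, 4 of the 6 listed are on the array, 3 were detected and none was called, with unc-84, a nuclear anchoring gene, highest at 0.95 for NP.

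The listed fibrous organelle genes and partners, most of which share the epidermal attachments with IFB-1 and the IFA proteins, lay below the median gene on the NP array. Of 7 listed, 5 were detected there, all below 0, and 3 were called lower, where 8.42% of all detected genes were. The median of the 5 was -1.04. Without the centring 1 was called and the median was -0.66, and with the span trend taken out 1 was called and the median was -0.61. With the values as deposited 3 were called and the median was -1.03. The plakin gene vab-10, which links filaments to the attachment, read 1204 in the control, 713 after DEHP and 359 after NP, with a change of -1.75 for NP. Without the centring vab-10 was at -1.37 and was the one call left. The transmembrane receptor gene let-805 (-1.04) and the perlecan gene unc-52 (-1.14), which encodes a basement membrane component, were the others called with it, and mup-4 stood at -0.97. For BPA 6 were detected with a median of 0.28, and for DEHP 5 with a median of -0.26, and none was called on either. Epidermal markers did not share the low NP median: 10 of 11 were detected, with a median of -0.18 that turned to 0.20 without the centring, 1 called lower and 1 higher. Their summed intensity was 23717 in the control, 30400 with BPA, 31429 with DEHP and 24732 with NP. The genes sqt-3 and col-19 made up 77.3% of the control sum, so it describes mainly these genes. The marker median was 0.23 for BPA and 0.29 for DEHP. Below it on the DEHP array lay ifa-1 by 1.02 log2, ifa-4 by 0.76, ifa-2 by 0.61 and ifb-1 by 0.50. For NP these distances were 1.27, 0.16, 0.43 and 0.071, and the dim ifa-3 lay 0.94 above the median for DEHP. The ifb-1 distances hold for the probe set with the higher mean. The other ifb-1 probe set was lower, with changes of -0.51 for DEHP and -1.07 for NP. The part of the epidermis's share of the RNA in the members' values was not tested.

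**Figure D4:**
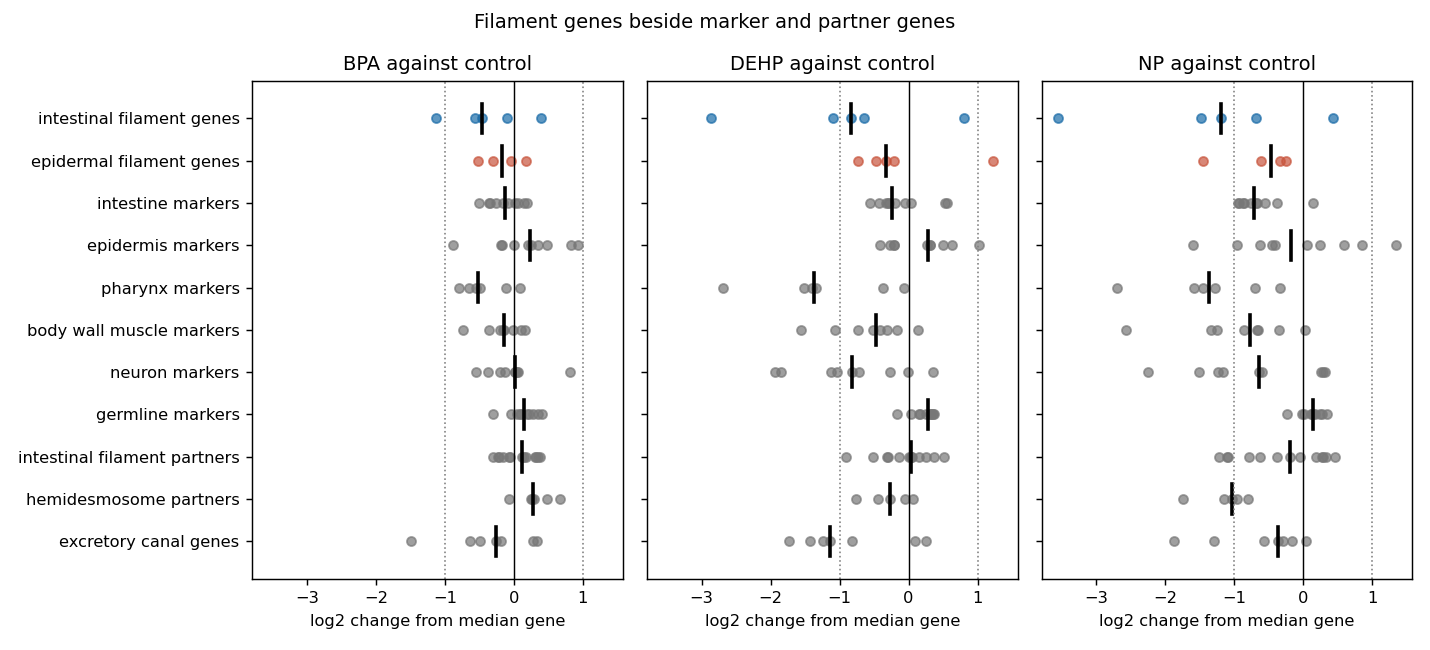
Log2 change from the median gene of the detected members, of markers of 6 tissues and of 3 lists of partner genes, for each exposed array against the control; each point is a gene, the black bar is the median, and dotted lines mark 2-fold. The pharynx markers lie lowest among the marker lists for DEHP and NP, with medians of -1.37 on both, and germline markers lie at or above 0 in the median.

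Tissues of the pharynx and excretory canal bear on ifa-1, ifa-4, ifb-1 and ifc-2. All 6 pharyngeal markers were detected, and 4 were called lower for both DEHP and NP, with a median of -1.37 on each array and -0.52 for BPA. Of all detected genes, 5.72% were called lower for DEHP and 8.42% for NP. Without the centring 4 of the markers were called for DEHP and 3 for NP, with medians of -1.21 and -0.99. Their summed intensity was 10948 in the control, 8317 with BPA, 4052 with DEHP and 3847 with NP. The pharyngeal myosin gene myo-2 stood at -2.70 on both the DEHP and NP arrays. On the NP array ifa-1 lay within 0.079 log2 of the pharyngeal median, and on the DEHP array it lay 0.64 above it. The partner gene ifb-1, by the probe set with the higher mean, lay above that median by 1.15 for DEHP and 1.12 for NP. The part of the pharynx in the ifa-1 values was not tested.

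Of 7 excretory canal genes on the array, 1 was called lower for BPA, 4 for DEHP and 2 for NP, with medians of -0.26, -1.14 and -0.36. Of all detected genes, 1.41%, 5.72% and 8.42% were called lower. Without the centring the numbers of canal genes were 1, 3 and 1, and the NP median was 0.02. With the values as deposited they were 1, 4 and 2, and the NP median was -0.35. The aquaporin gene aqp-8 was the one called in all 3 comparisons, with 353 in the control, 126 after BPA, 106 after DEHP and 96.1 after NP. It was under the detection level on each exposed array, so the sizes of its differences are uncertain. The proton pump subunit gene vha-5 read 861 in the control, 393 after DEHP (-1.14) and 352 after NP (-1.30), and without the centring neither value reached 2-fold (-0.98 and -0.92). The canal's filament genes ifa-4 and ifb-1, the latter by the probe set with the higher mean, were not called in any of these comparisons. The other ifb-1 probe set read -1.07 for NP. The gene ifc-2 was called only for NP. Germline markers, with 10 of 10 detected, had medians of 0.15 for BPA, 0.28 for DEHP and 0.14 for NP and no called gene.

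The exposed arrays were also compared with each other, where the control array plays no part. They share time, medium, lack of food and fraction of the lethal concentration. For DEHP against BPA, ifc-1 was lower by 1.71 log2 (a change of -1.71) and was the only one called of the 9 members other than ifa-3, where 4.94% of all detected genes were called. For NP against BPA, ifc-1 (-2.39) and ifa-1 (-1.38) were called, 2 of 9 detected members, where 8.93% of all detected genes were. The brightest probe set of ifc-2 was at -0.89 in this comparison and the next one at -1.30. The gene's value was -1.02 with loess scaling and -1.64 with the mean of its probe sets, the dim one included, and with it 3 members were called. For NP against DEHP, 0 of the 9 members other than ifa-3 were called, where 7.46% of all detected genes were. In both comparisons with DEHP, ifa-3 passed the detection filter only through that array, at a scaled intensity of 266 against 70.8 for BPA and 68.0 for NP, which lie under the detection level. It counts as past 2-fold there, but neither its size nor a share of members is read from it.

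**Figure D5:**
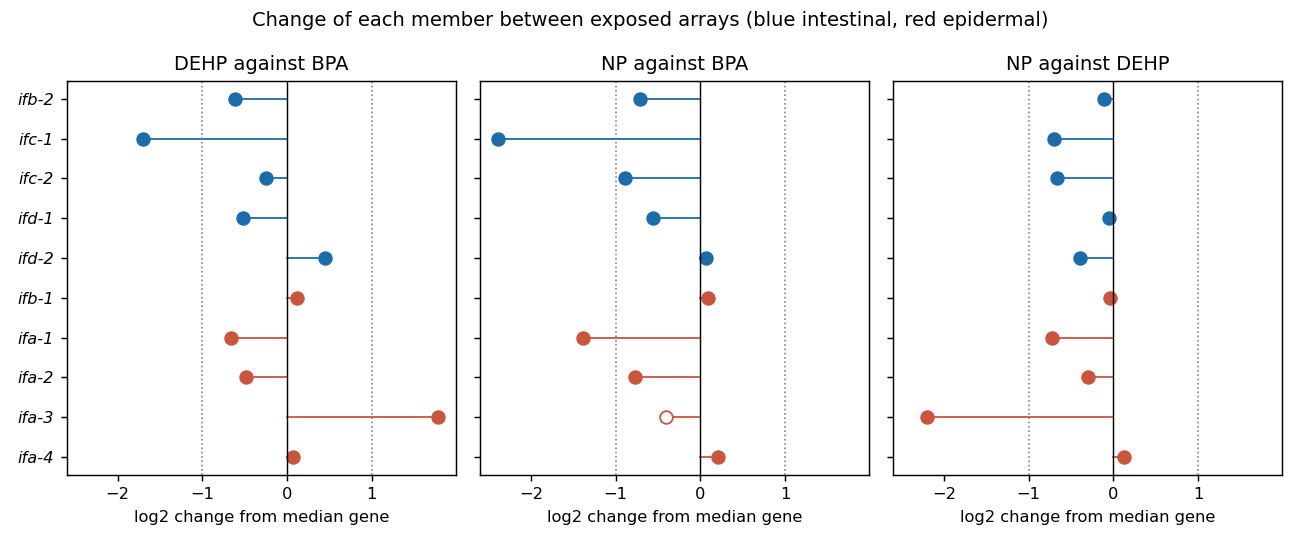
Log2 change of each member from the median detected gene between the exposed arrays; filled points were detected, the open point was not, and dotted lines mark 2-fold. The transcript of ifc-1 is lowest against BPA in both panels that hold BPA, at -1.71 and -2.39, while ifa-3 is high on the DEHP array alone.

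For ifc-1, the values for the phthalate diester DEHP and the phenol NP were each farther from that for the phenol BPA than from each other. Its NP against DEHP change was -0.70, below 2-fold, and that of ifb-2 was -0.11. With 1 array each, no interval can be given for these differences, and the molar doses are not given in the labels.

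The genes whose levels over the 4 arrays were most like those of each called member were found by the Euclidean distance between log2 levels, each array centred on its median and each gene on its own mean, among 9251 genes. For ifc-1 the nearest gene was R05A10.1 at a distance of 0.26, with intensities of 324, 134, 35.1 and 26.1 for control, BPA, DEHP and NP. Its DEHP and NP values were under the detection level. The next were myo-2 at 0.64 and F43C11.3 at 0.71. For each other called member, the nearest gene was closer than this. For ifb-2 the nearest were T07F12.4 (0.042), ncs-6 (0.071) and ser-4 (0.086). For ifc-2 they were frm-8 (0.059), rfip-2 (0.076) and the collagen gene col-66 (0.080), and for ifa-1 they were F53B1.8 (0.035), odr-2 (0.062) and F09B12.3 (0.073). Of these, frm-8 and odr-2 were dim, with intensities of at most 148 and 140 on any array. The nearest to ifa-3 were C14C6.5 (0.13), F01D5.1 (0.21) and Y59H11AM.1 (0.24), all read by _s_ or _x_ probe sets. As ifa-3 was above the detection level on the DEHP array alone, nothing is read from this likeness. Among the members themselves, the closest were ifa-4 and ifb-1 at 0.21, by the ifb-1 probe set with the higher mean. Next came ifa-2 and ifd-1 at 0.27, an epidermal and an intestinal member. Then ifb-2 and ifd-1 were 0.39 apart, ifb-2 and ifc-2 0.40 apart and ifa-1 and ifc-2 0.42 apart, while ifc-1 and ifd-2 were 3.26 apart. With 4 arrays, such likeness is a description of these libraries alone.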

How the data were processed

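The deposited values are one linear intensity per probe set, 22625 on each array. The authors had scaled them: without the lowest and highest 2%, the mean is 500.1 on every array. The summary method is not given in the sources used here. The labelling text names fibroblast cultures, against the other labels, which name worms. After 77 control probe sets were set aside, log2 values were shifted to a common median and floored at the 25th percentile (28.3), the brightest probe set of each gene was taken, and changes were centred on the median detected gene. Symbols were updated through gene identifiers with the WBcel235 gene table. The members, the 11 gene lists and the rules were chosen with earlier results of these data known. Named genes were all members, up to 4 genes per list and comparison with the largest change, and the 3 most similar genes per called member; elt-2, asp-1, cpr-1, par-6 and the junction genes for NP were chosen after their values were seen. Alternatives were quantile, loess (span 0.3) and deposited scaling, no centring, other filters, no floor, the mean of probe sets and removal of a lowess trend with gene span; leaving out the NP array was added after seeing the data. The procedure was tested on simulated data (Python 3.11.15, pandas 2.3.3, statsmodels 0.14.6).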

Additional observations from a re-analysis of the deposited data

How the results depend on the processing

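The counts of called members were recomputed under 9 other settings of the scaling, centring, filter, floor, probe sets and gene span. For DEHP against the control, 1 member in place of 2 was called lower without the centring and without the filter on dim genes, where ifb-2 fell short of 2-fold; without that filter the centre is taken over dim genes as well. With the filter at the 75th percentile, ifa-3 was not tested, so 0 members were called higher for DEHP, 1 member was called for DEHP against BPA and 0 for NP against DEHP. With the mean of the probe sets, 2 members were called for NP against DEHP, as ifc-2 then read -1.26 with its dim probe set included. For NP against BPA, 3 members in place of 2 were called with loess scaling, with the 75th percentile filter and with the mean of the probe sets. The difference of intestinal and epidermal medians ranged from -0.29 to -0.0057 for BPA, from -0.62 to -0.29 for DEHP and from -0.96 to -0.55 for NP. The count of 4 members lower for NP was 3 without the centring and without the filter. The changes of ifc-1 ranged from -1.15 to -1.11 for BPA, from -2.95 to -2.70 for DEHP and from -3.69 to -3.17 for NP. After the span trend was taken out, the count for NP was 4. Leaving out the NP array left the BPA and DEHP counts at 1 and 2. Of 588 recomputed member changes and group medians, 578 kept their side of 2-fold, 6 lost a call, 4 gained one and 0 changed the sign of a called value. No paired analysis was possible because each group has 1 array.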

Other observations

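Of the 10 filament genes, 7 are on chromosome X, 2 on II and 1 on V in the WBcel235 annotation. Detected genes of chromosome X had a median log2 change of -0.26 on the NP array, and 13.3% of its 1289 detected genes were called lower, against 5.63% to 10.4% on the other chromosomes. On the DEHP array the X median was -0.05 with 6.48% called lower, and on the BPA array it was 0.07 with 1.31%. The filament gene with the lowest change on each exposed array, ifc-1, is on V, where 10.4% of detected genes were called lower for NP. The part of the chromosome in the members' values was not tested.

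Neuronal markers had medians of -0.83 for DEHP and -0.65 for NP and one of 0.02 for BPA, with 4 of 9 detected called lower on each of the DEHP and NP arrays, and 2 on each without the centring on the median gene. Body wall muscle markers, the tissue that the epidermal filaments couple to the cuticle, had medians of -0.15, -0.47 and -0.77 for BPA, DEHP and NP, with 0, 2 and 3 of 8 detected called lower, and 0, 1 and 1 without the centring. With the centring, 1.41%, 5.72% and 8.42% of all detected genes were called lower for BPA, DEHP and NP.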
